A study of Mus musculus and Homo sapiens
Mus musculus with 12 samples.

Results

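Dentate gyrus granule neurons were sought among 11198 nuclei of mouse brain profiled by single-nucleus total RNA sequencing with HH-seq, and 417 nuclei met the rule. A nucleus was a member when it held at least 4 Glis3 UFIs per 10000 UFIs, at least 1 Prox1 UFI, under 5 Slc34a1 and Lrp2 UFIs together per 10000, and under 4 Slc1a3 UFIs per 10000. A UFI, or unique fragment identifier, marks each cDNA fragment before amplification so that copies of 1 fragment are counted a single time. The limits on Slc34a1 and Lrp2, genes of the kidney proximal tubule, and on Slc1a3, a glutamate transporter of astrocytes, kept out nuclei with genes of those cells, in which Glis3 was also found. Because the members were chosen by Glis3 and Prox1 in the same nuclei, levels in members against other nuclei are given as a description, with no test.

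Granule neurons are the principal cells of the dentate gyrus, the first station of the hippocampal circuit. They receive input from the entorhinal cortex, send mossy fibres to hilar mossy cells and CA3 pyramidal cells, and are among the few neurons still added in the adult rodent brain. Prox1, a homeobox transcription factor, is needed for their identity, and C1ql2, a secreted protein of the C1q-like family, is released at mossy fibre synapses, where it helps to gather kainate receptors. The other markers given with the rule were Glis3, a zinc finger transcription factor, Rfx3, a transcription factor of ciliary genes, Chst9, an enzyme that adds sulphate to N-acetylgalactosamine, and Trpc6, a cation channel opened by diacylglycerol.

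All brain libraries came from wild-type C57BL/6J male mice of 6 to 8 weeks, with no transgene or treatment. Nuclei were isolated from fresh or from frozen brain that had been crushed in liquid nitrogen, and cDNA was made with random primers that either carried a first cell barcode (preindexed) or did not (no preindex). The 7 libraries were 2 frozen without preindex, 2 frozen preindexed, 2 fresh without preindex and 1 fresh preindexed, and values by library are given below in that order. The labels do not say whether libraries came from separate animals, so p-values measure the spread between these libraries, which may be technical. The brain region is not given, and nothing was dissected out as hippocampus. For 4 of the 7 libraries the primer named in the title and that in the treatment field differ; the titles were used. The deposited barcodes had 40 bases where the title named preindexing (3 libraries) and 30 bases in the other 4. The constant part of the random primer, shown because the primer comparison turns on it, was followed by a 10-base barcode and 7 random bases.

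random primer, constant part: ggagttggagtgagtggatgagtgatg

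Libraries held 700, 800, 2300, 1998, 1000, 1300 and 3100 nuclei and 8605214, 14730649, 26292939, 31796326, 24750188, 42439731 and 32124243 UFIs. Members numbered 20, 29, 76, 61, 51, 58 and 122 nuclei, with a median of 10486.5, 16915, 10004.5, 14692, 23404, 27979.5 and 7778.5 UFIs. The fresh libraries without preindex were the deepest per member and the fresh preindexed library, which gave the most members, the shallowest. A barcode was found in 2 libraries in 32 cases, and 5 members carried such a barcode.

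Some of the marker genes have a neighbour that also stood high in members. On GRCm38, Glis3 spans chr19:28258851-28680077 on the minus strand, and Rfx3 spans chr19:27761721-28011166 on the same strand, with 247684 bases and 0 protein-coding genes between them. Prox1 spans chr1:190118035-190170714 on the minus strand, and its antisense transcript Prox1os spans chr1:190170296-190217276 on the plus strand, so that their ends overlap by 419 bases. C1ql2 spans chr1:120340582-120343174 on the plus strand and Trpc6 chr9:8544142-8680741 on the plus strand. The 250 bases before the RefSeq start of Prox1 (chr1:190170828-190171077, minus strand) and of C1ql2 (chr1:120340332-120340581, plus strand), both from GRCm38.p6, are shown because these are the class's established regulator and its synaptic marker; the RefSeq start of Prox1 lies upstream of the end of the gene given above. Capitals mark CAGATG, a site of the kind that basic helix-loop-helix factors such as NeuroD bind, searched on both strands.

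Prox1 upstream: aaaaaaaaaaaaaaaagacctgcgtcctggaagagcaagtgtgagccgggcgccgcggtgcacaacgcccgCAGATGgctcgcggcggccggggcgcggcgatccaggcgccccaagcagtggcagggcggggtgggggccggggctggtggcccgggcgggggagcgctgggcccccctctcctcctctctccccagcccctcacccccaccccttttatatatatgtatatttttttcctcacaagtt

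C1ql2 upstream: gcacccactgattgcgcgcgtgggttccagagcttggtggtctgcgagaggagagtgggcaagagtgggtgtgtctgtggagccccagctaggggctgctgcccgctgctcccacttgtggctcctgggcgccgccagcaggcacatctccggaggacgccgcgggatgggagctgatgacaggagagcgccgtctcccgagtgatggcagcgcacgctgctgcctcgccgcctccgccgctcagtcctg

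CAGATG was found 1 time in the Prox1 window, 179 bases before the start, and not in the C1ql2 window. It was present in 14.4% of 32851 such windows of 250 bases, so a match is a description of the sequence and not a site of binding.

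The label was checked against the 4 markers that the rule did not use. Of 417 members, 165 held UFIs of all 4 of C1ql2, Chst9, Rfx3 and Trpc6, 150 held 3, 76 held 2, 25 held 1 and 1 held 0. At least 3 of the 4 were thus found in 315 nuclei. C1ql2 was found in 49.6% of members (exact 95% interval 44.7 to 54.5%) against 1.94% of 3150 other nuclei with at least 2 UFIs of Slc17a7, the vesicular glutamate transporter of the forebrain (here called other Slc17a7 nuclei). Chst9 was found in 81.5% against 20.7%, Trpc6 in 77.9% against 25.4%, and Rfx3 in 99.5% against 88.9%. Members were the shallower class, with a median of 13088 UFIs against 17175 in other Slc17a7 nuclei. With each nucleus thinned to 4000 UFIs, the share with C1ql2 was 20.9% against 0.413%. The intervals and limits in this report cover counting error only.

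Nuclei on either side of the Glis3 limit resembled each other in the other markers. Glis3 ranged from 4.03 to 71.7 UFIs per 10000 in members, with a median of 12.9, and Prox1 from 1 to 40 UFIs, with a median of 5. The 22 members with Glis3 at 4 to under 5 per 10000 had 3 or 4 of the other markers in 63.6% of nuclei, and the 25 nuclei just outside, at 3 to under 4, in 60.0%. Prox1 parted nuclei more sharply, for the 372 nuclei that passed every limit but held no Prox1 UFI had 3 or 4 other markers in 12.9%. A single Prox1 UFI admitted 54 members. The limits on kidney genes and on Slc1a3 removed 71 and a further 23 nuclei. A gate without Glis3, which asked for Prox1 and at least 3 of the 4 other markers beside the same upper limits, took 394 nuclei and shared 315 with the members, which is 75.5% of members and 79.9% of that gate. The 315 are the members counted above with at least 3 other markers, so this overlap is not a second check of the label.

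Levels were computed as counts per 1000000 UFIs (CPM) of the members' UFIs summed in each library, and the difference between members and other Slc17a7 nuclei as a log2 ratio of CPM + 1 within each library, given as mean ± SD over 7 libraries. Reads within introns were counted, so CPM values of different genes also carry gene length. Differences are therefore taken between nuclei. Where a gene is called the most abundant of a list, or gives part of its sum, that order carries gene length too. Among 5998 genes with at least 20 CPM in either class, the median log2 ratio was 0.0285. Of these genes 21.1% were higher in members in all 7 libraries and 20% were lower in all 7.

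C1ql2, which the rule did not use, stood at 79.0, 79.0, 55.3, 55.1, 69.6, 88.6 and 35.8 CPM in members. Other Slc17a7 nuclei held 1.52 ± 1.21 CPM (SD, n = 7) and no library exceeded 3.41 CPM, so that the classes did not overlap (log2 ratio 4.84 ± 0.47). Within members the lowest C1ql2 level was in the fresh preindexed library and the 3 preindexed libraries were below the other 4. Rfx3 stood at 1500, 1430, 2040, 2080, 1830, 1660 and 2330 CPM in members against 363 to 436 CPM in other Slc17a7 nuclei (log2 ratio 2.14 ± 0.22). For Rfx3 the order was the opposite, with the 3 preindexed libraries the highest. Chst9 stood at 229, 237, 342, 419, 306, 275 and 372 CPM in members against 31.6 to 63.6 CPM (log2 ratio 2.76 ± 0.54). Trpc6 varied least of these 4, at 349, 365, 360, 309, 288, 339 and 318 CPM against 34.7 to 71.8 CPM (log2 ratio 2.75 ± 0.29). The genes of the rule were, by choice, at 1440 ± 230 CPM for Glis3 and 401 ± 61.2 CPM for Prox1 in members, against 71.8 ± 18.1 and 12.2 ± 5.95 CPM.

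**Figure D1:**
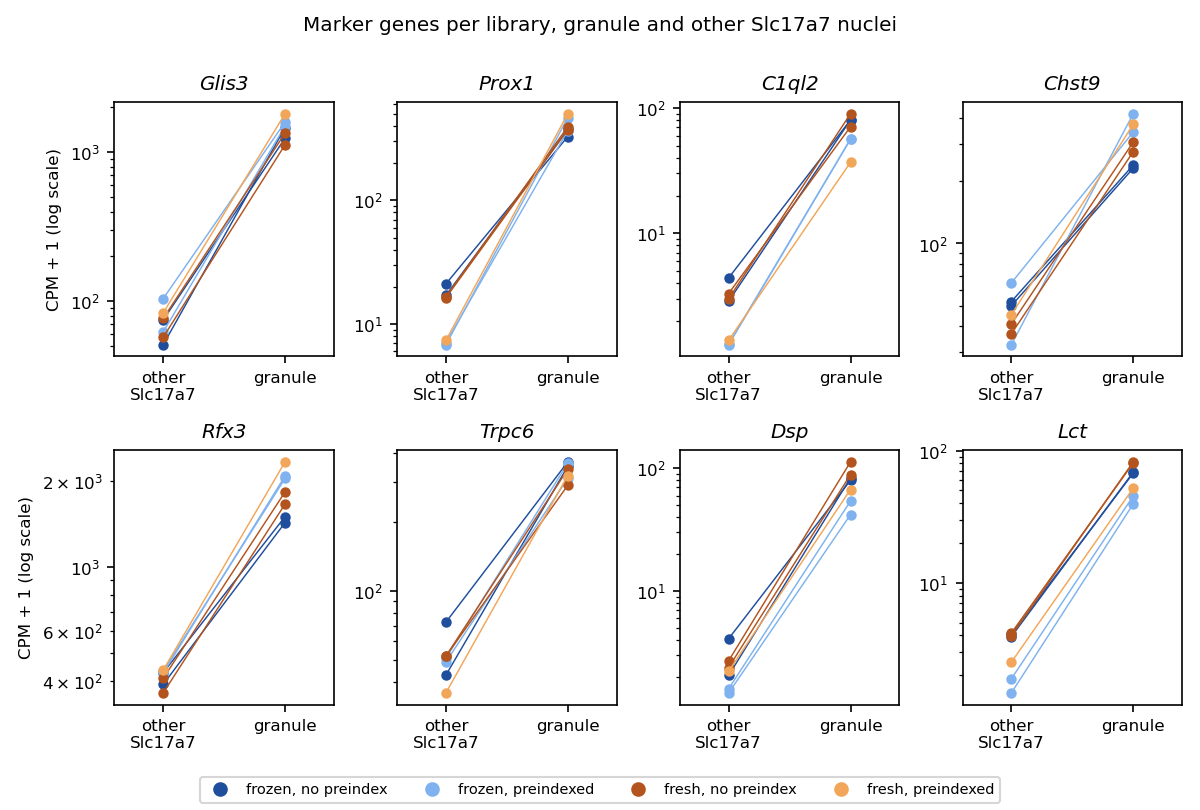
Levels of 8 granule genes (CPM + 1, log axis) in other Slc17a7 nuclei and in granule nuclei, with 1 line per library and colours for storage and primer. Every line rises from left to right, and C1ql2 stands between 35.8 and 88.6 CPM in granule nuclei against at most 3.41 CPM in the others; Glis3 and Prox1 chose the nuclei.

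Glis3 was not limited to granule nuclei in these files. In the 458 nuclei at or above the limit on the proximal tubule genes Slc34a1 and Lrp2 it stood at 2270 CPM. That value is the mean of the 2 libraries with enough of them, and the origin of these nuclei was not tested. In the 249 nuclei at or above the limit on Slc1a3, Glis3 stood at 390 CPM. Zbtb20, a zinc finger factor of hippocampal development, stood at 3510 ± 291 CPM in members, 3750 CPM in the former nuclei and 2140 CPM in the latter, against 438 ± 91.5 CPM in other Slc17a7 nuclei.

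Beyond the markers, the 15 genes with the highest ratio among those with at least 50 CPM in either class began with Prox1 itself (log2 ratio 5.06). Dsp, which encodes desmoplakin of cell junctions, followed with 74.5 ± 23.5 CPM in members and 1.35 ± 0.872 CPM in other Slc17a7 nuclei (5.02 ± 0.38). C1ql2 (4.84) came before Prox1os, the antisense transcript of Prox1, at 93.1 ± 14.4 against 2.92 ± 1.79 CPM (4.70 ± 0.74). Lct, the lactase gene, stood at 61.2 ± 16.9 against 2.14 ± 1.15 CPM (4.36 ± 0.24) and was found in 42.7% of members and 3.3% of other Slc17a7 nuclei. Glis3 (4.33) was followed by Stra6, a membrane receptor for retinol carried by its binding protein, at 62.5 ± 19.4 against 2.23 ± 1.06 CPM (4.31 ± 0.47). Slc29a4, a plasma membrane transporter of monoamines, stood at 105 ± 19.4 against 5.63 ± 0.79 CPM (3.99 ± 0.27). Maml2, a coactivator of Notch signalling, stood at 1250 ± 176 against 84.8 ± 12.5 CPM (3.86 ± 0.40), and Dock10, an exchange factor for small GTPases, at 646 ± 97.0 against 52.4 ± 12.2 CPM (3.62 ± 0.35). Others of the 15 were Tspan18 (3.62), Vwa3b (3.57), Il1r1, the interleukin-1 receptor (3.51), and Cecr2, of chromatin remodelling (3.45). In all, 271 of the 3443 genes at 50 CPM or more were higher in members in all 7 libraries and over 2-fold higher by their mean log2 ratio.

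At the other end, 327 genes were lower in all 7 libraries and over 2-fold lower by their mean log2 ratio. The lowest ratio belonged to Igfn1, at 1.27 ± 1.94 CPM in members and 52.4 ± 13 CPM in other Slc17a7 nuclei (-4.90 ± 1.07), with no UFI in 4 of the member sums. The long noncoding RNA Gm28928 stood at 165 ± 114 against 3510 ± 473 CPM (-4.75 ± 1.23). Without nuclei holding genes of another class, Gm28928 stood at -6.26 and Igfn1 at -5.05, so that their order turned. Hs3st2, a heparan sulphate sulphotransferase (-4.57), Rspo2, a secreted enhancer of Wnt signalling (-4.38), Scube1 (-4.17), 9130024F11Rik (-4.15) and Abi3bp (-4.04) followed. Pdzrn3 (-3.86) and Etl4 (-3.77) were the least different of the 10. With nuclei holding genes of another class left out, 9130024F11Rik, Pdzrn3 and Etl4 stood at -4.93, -4.62 and -4.66.

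Of a further list of granule genes, all 16 members of the list that reached 20 CPM were higher in granule nuclei in all 7 libraries, against 21.1% of all genes, but several were put on the list after such results were known. Among the most different, Sema5a, a semaphorin, stood at 1040 ± 59.7 against 118 ± 22.7 CPM (3.16 ± 0.27) and Stxbp6, a syntaxin-binding protein, at 836 ± 80.0 against 125 ± 19.1 CPM (2.75 ± 0.23). Calb1, the calcium buffer calbindin, stood at 82.4 ± 18.5 against 25.7 ± 7.90 CPM and was found in 54.0% of members. Lrrtm4, a postsynaptic adhesion protein of dentate excitatory synapses, stood at 6070 ± 582 against 3410 ± 425 CPM (0.84 ± 0.20). Gabrd, the delta subunit of extrasynaptic GABA-A receptors, differed little, at 15.9 ± 3.28 against 12.1 ± 2.63 CPM, higher in 5 of 7 libraries. Pdyn, the precursor of dynorphin peptides, was low in both classes, at 9.98 ± 9.03 against 1.21 ± 0.797 CPM.

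Of 19 transcription factors measured, 12 were higher in all 7 libraries and 5 lower, with a median log2 ratio of 0.859; Prox1, Glis3 and Rfx3 are on it. Nr3c2, the mineralocorticoid receptor, stood at 1620 ± 175 against 463 ± 105 CPM (1.83 ± 0.32), whereas Nr3c1, the glucocorticoid receptor, stood at 122 ± 14.2 against 150 ± 7.08 CPM and was higher in 1 of 7 libraries. Zfpm2, a partner of GATA factors (1.83), Bcl11b (1.51) and Nfia (1.48) were higher, as were Nfib (0.86) and Nfix (0.59). Sox5, at 107 ± 58.3 against 641 ± 58.2 CPM (-2.74 ± 0.75), Mef2c (-1.10), Foxp1 (-0.66), Bcl11a (-0.64) and Klf7 (-0.62) were lower in all 7. The bHLH factor Neurod2 stood at 40.4 ± 17.3 against 14.6 ± 2.31 CPM (1.29 ± 0.61); Neurod1 was not analysed here.

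Kainate and AMPA receptor subunits split. Of 9 subunits, 4 were higher in members in all 7 libraries and 3 lower, with a median log2 ratio of 0.100. Gria1, an AMPA subunit, stood at 3450 ± 205 against 1500 ± 171 CPM (1.21 ± 0.15), while Gria4 stood at 230 ± 29.2 against 805 ± 33.7 CPM (-1.81 ± 0.16). The kainate subunits Grik2 (0.95 ± 0.16) and Grik4 (0.77 ± 0.22), both known from mossy fibre synapses, were higher, Grik3 was lower (-0.65 ± 0.31), and Grik1 ranged from 4.16 to 248 CPM among libraries. Of 4 NMDA subunits that reached 20 CPM, Grin2a was higher in all 7 libraries, at 3860 ± 183 against 2290 ± 199 CPM (0.76 ± 0.13). Grin1 (-0.05) and Grin2b (0.05) differed by less than their SD of 0.13 and 0.16.

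Metabotropic glutamate receptors were lower more often than higher, 4 against 2 of 7 measured. Grm2, a presynaptic receptor of mossy fibres, stood at 51.9 ± 16.9 against 16.1 ± 4.45 CPM (1.61 ± 0.32). Grm8, at 99.5 ± 34.0 against 605 ± 52.4 CPM (-2.68 ± 0.56), Grm3 (-2.23 ± 0.84), Grm4 (-0.97 ± 0.73) and Grm7 (-0.30 ± 0.21) were lower in all 7. Grm4 stood at -1.99 without nuclei holding genes of another class. Grm5 stood at 1590 ± 219 against 1580 ± 156 CPM.

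Subunits of the GABA-A receptor were higher in 6 of 10 cases and lower in 3, with a median log2 ratio of 0.401. Gabra5 (0.88 ± 0.29), Gabra2 (0.80 ± 0.24) and Gabra4 (0.62 ± 0.22), alternative alpha subunits, were higher in all 7 libraries. Gabra3 (-2.50 ± 0.99), also an alpha subunit, and Gabrg3 (-1.35 ± 0.41) were lower in all 7. They stood at -3.44 and -1.95 without nuclei holding genes of another class.

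**Figure D2:**
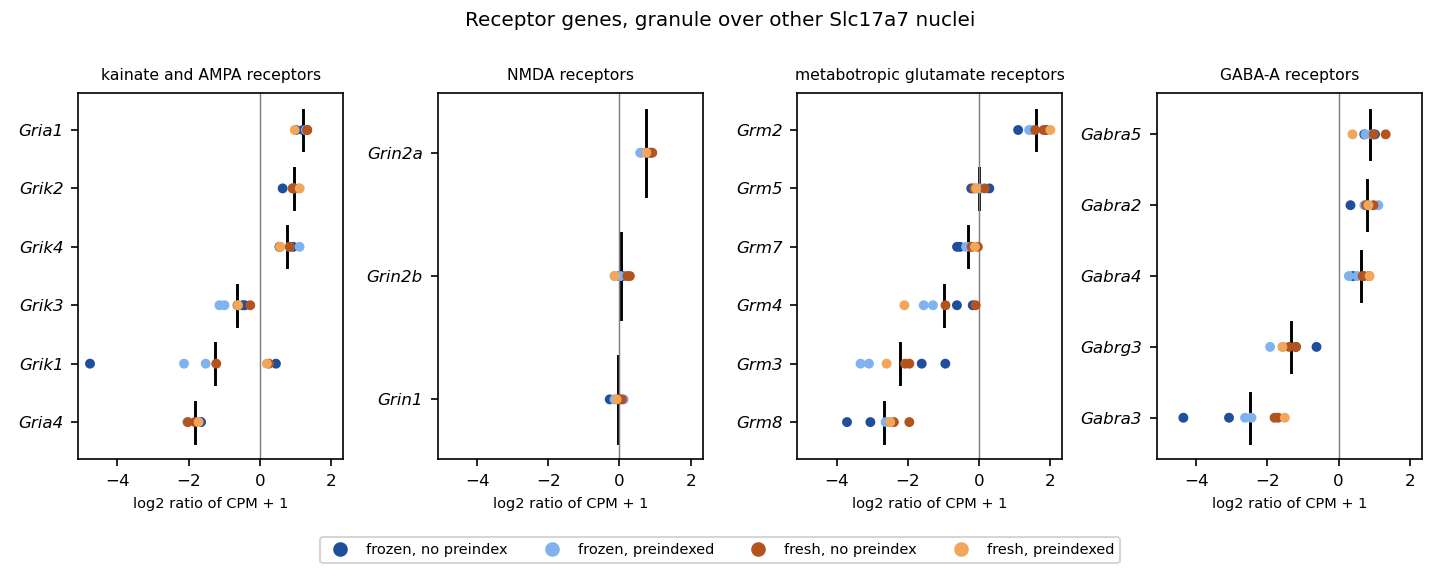
Log2 ratio of CPM + 1 in granule over other Slc17a7 nuclei for the receptor genes named in the text, with 1 point per library, a black bar at the mean and a grey line at 0. Gria1, Grin2a, Grm2 and Gabra5 lie to the right of 0 and Gria4, Grm8 and Gabra3 to the left in all 7 libraries, whereas Grin1, Grin2b and Grm5 lie on both sides.

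Of the 8 measured genes of C1q-like proteins and their partners, 3 were higher in all 7 libraries and 5 lower. C1ql3, a family member that can join C1ql2 in mossy fibre synapses, stood at 80.7 ± 12.9 against 23.5 ± 2.80 CPM (1.73 ± 0.35), and C1ql1 and C1ql4 were under 1 CPM on average. The adhesion receptor Adgrb3, which binds C1q-like proteins, was lower (-0.43 ± 0.11), as was Adgrb1 (-0.36 ± 0.18), and Adgrb2 was higher (0.77 ± 0.15). Nrxn3, a neurexin partner of C1ql2, stood at 1750 ± 372 against 5270 ± 224 CPM (-1.61 ± 0.37). Trpc6 was the 1 of 5 measured TRPC genes that was higher in all 7, with Trpc4 (0.08 ± 0.37) and Trpc5 (0.26 ± 0.26) mixed among libraries.

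Of 26 potassium channel genes, 7 were higher in all 7 libraries and 10 lower. Kcnip2, an A-type channel subunit (1.27 ± 0.17), Kcnk1, of the 2-pore family (1.23 ± 0.20), Kcnj6, a G-protein-gated inward rectifier (1.07 ± 0.19), and Kcnd2, an A-type channel (0.75 ± 0.22), were higher. Kcnq5, an M-current channel, stood at 291 ± 157 against 1730 ± 103 CPM (-2.74 ± 0.84) and fell to -4.16 without nuclei holding genes of another class. Kcnc2 (-2.41 ± 1.07), Kcnh7 (-1.90 ± 0.31) and Kcnt1 (-1.85 ± 0.50) were lower, of which Kcnc2 and Kcnt1 fell to -3.33 and -3.28 without those nuclei. Of 19 calcium and sodium channel and release-channel genes, 7 were higher and 7 lower. Cacna1h, a T-type calcium channel, stood at 193 ± 31.1 against 45.3 ± 8.71 CPM (2.07 ± 0.26), while the other T-type channels Cacna1g (-1.17 ± 0.49) and Cacna1i (-1.20 ± 0.30) were lower. Ryr2, a calcium release channel, was higher by nearly the same ratio in every library (0.83 ± 0.06).

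Among 34 adhesion and guidance genes at 20 CPM or more, 12 were higher and 13 lower in all 7 libraries. Besides Sema5a, Cdh9, a cadherin of mossy fibre synapses, stood at 441 ± 41.5 against 110 ± 20.8 CPM (2.01 ± 0.23), Slit1 at 543 ± 76.9 against 138 ± 10.4 CPM (1.95 ± 0.22), and the semaphorin coreceptor Plxna4 at 2510 ± 273 against 927 ± 43.3 CPM (1.43 ± 0.18). Unc5d, a netrin receptor (-2.16 ± 0.59), Sema3e (-2.11 ± 0.87), Cdh10 (-2.0 ± 0.37), Tenm4 (-1.55 ± 0.27) and Tenm3 (-1.50 ± 0.16) were lower. Chst9 was the only sulphotransferase of 14 that was higher in all 7 libraries, and 8 were lower, among them the heparan sulphate enzymes Hs3st4, at 171 ± 73.6 against 1300 ± 228 CPM (-3.03 ± 0.89), and Hs6st3 (-1.62 ± 0.44).

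Of 6 peptide and trophic factor genes at 20 CPM or more, 4 were higher. Ntf3, neurotrophin-3, stood at 126 ± 14.4 against 15.5 ± 2.30 CPM (2.95 ± 0.32), Bdnf at 85.2 ± 17.4 against 40.4 ± 8.22 CPM (1.05 ± 0.40), and the secreted pentraxin Nptx1 at 268 ± 73.1 against 109 ± 19.4 CPM (1.27 ± 0.23). Vgf, a secreted peptide precursor, was lower, at 6.22 ± 2.38 against 27.4 ± 12.2 CPM (-1.92 ± 0.47). Of 4 immediate early genes at 20 CPM or more in either class, 2 were lower in members in all 7 libraries and 2 were mixed, and all 12 summed to 240 against 478 CPM. Arc was found in 1.92% of members and 16.1% of other Slc17a7 nuclei and Fos in 1.2% against 2.06%, though members were the shallower class. Jun, which did not reach 20 CPM in either class, was higher in all 7 at 18.8 ± 4.73 against 4.16 ± 0.771 CPM (1.92 ± 0.41), and Homer1 was lower in all 7 libraries (-1.26 ± 0.60). Of the nuclear RNAs, Malat1 was close in both classes (0.11 ± 0.17), and Meg3 (-1.28 ± 0.26) and Snhg11 (-1.91 ± 0.22) were lower in all 7.

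Markers of other cell types were examined by list. Of 6 measured genes of telencephalic glutamatergic neurons, 2 were higher and 2 lower in all 7 libraries. Camk2a, a kinase of excitatory synapses, stood at 1100 ± 144 against 736 ± 23 CPM, and Slc17a7 was found in 77.7% of members, whereas Neurod6, a factor of pyramidal neurons, was found in 0.719% of members against 14% of other Slc17a7 nuclei. Of the immature granule list, whose 8 genes summed to 63.3 CPM, only Dcx reached 20 CPM in members (39.2 ± 11.8 against 101 ± 13.4 CPM), and Eomes, of intermediate progenitors, had a UFI in 0 of 417 members, which allows a share of nuclei with a UFI of up to 0.719% (3 nuclei of the total). The 8 genes of CA1 and CA2 pyramidal neurons summed to 67.6 against 272 CPM, with Mpped1 the most abundant at 19.9 CPM. The 8 cortical genes summed to 546 against 1580 CPM, with 6 of 7 measured lower in all 7 libraries. The 6 CA3 genes summed to 1190 against 983 CPM, of which the kainate subunit Grik4 gave 682 CPM. Mossy cell genes summed to 82.8 CPM, of which Ajap1 gave 76.5 CPM, and Calb2 and Drd2 stood at 4.16 and 1.94 CPM.

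Interneuron genes gave a mixed result. Gad1, a GABA-synthesising enzyme, stood at 91.4, 69.6, 42.1, 63.0, 54.3, 68.1 and 85.9 CPM in members. It was above its level in other Slc17a7 nuclei, 7.02 ± 3.59 CPM, in all 7 libraries, where the comparator had been limited in Gad1 and Gad2. GABA neurons of the same files, chosen by these genes, held 330 CPM. Gad1 was found in 49.9% of members, Gad2 in 12% and Slc32a1, the vesicular GABA transporter, in 3.6%. Without nuclei holding genes of another class, Gad1 stood at 57.8 CPM in members and Gad2 at 6.26 CPM, at which Gad2 was no longer above its 7.54 CPM in other Slc17a7 nuclei; Gad2 was among the genes by which those nuclei were found. Adarb2, of the ADAR family and used as an interneuron marker, stood at 1940 ± 215 CPM in members, near its 2090 CPM in GABA neurons, against 273 ± 77.1 CPM in other Slc17a7 nuclei (2.87 ± 0.41).

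Astrocyte, oligodendrocyte and microglial genes summed higher in members than in other Slc17a7 nuclei, and vascular and liver genes were low. The 10 astrocyte genes summed to 1400 against 990 CPM, of which Slc4a4, a bicarbonate transporter, gave 912 ± 131 CPM and was higher in all 7 libraries; Slc1a3 was limited by the rule. The 8 oligodendrocyte genes summed to 453 against 233 CPM, with 2 of 4 measured higher in all 7 libraries and 0 lower, of which St18 gave 202 ± 25.2 CPM (2.39 ± 0.38). The 7 microglial genes summed to 182 against 109 CPM, the 7 vascular genes to 15.8 CPM and the 8 liver genes to 0.473 CPM, with 7 of these under 3 UFIs. Striatal genes summed to 834 against 1450 CPM, with Pde10a at 767 CPM. Oligodendrocyte precursor genes summed to 182 against 341 CPM, with Lhfpl3 at 165 CPM.

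Some members also held genes of another class. At least 5 UFIs per 10000 of the distal tubule genes Slc12a1, Umod and Pkhd1 were found in 7 members, 3 and 4 of them in the frozen preindexed libraries and none in the others, and none of the 7 had 3 or more other markers. At least 2 UFIs per 10000 of cerebellar granule genes were found in 14 members, 4, 4, 3 and 3 of them in the 4 libraries without preindex and 0 in the 3 preindexed libraries; 11 of them had 3 or more other markers. Gad2, Slc32a1 and Dlx6os1 at 2 or more per 10000 marked 16 members, 11 of them with 3 or more other markers. Cortical expression marked 30 members (7.19%), 14 of them in the fresh preindexed library, and 8 of the 30 had 3 or more other markers. Together these groups made up 64 members (15.3%), and of the other 353 nuclei 286 had 3 or more other markers. Kidney tubule genes summed to 12.5, 22.6, 251, 747, 14.5, 17.8 and 6.26 CPM in members, and the 5 measured cerebellar granule genes to 183, 143, 25.3, 58.1, 69.6, 93.5 and 50.1 CPM. Doublets were not removed, and whether these nuclei are doublets, carry free RNA or belong to another class was not tested.

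Members formed 2.86, 3.62, 3.3 and 3.05% of the nuclei in the 4 frozen libraries and 5.1, 4.46 and 3.94% in the 3 fresh libraries. Every fresh library was above every frozen library. The mean share was 3.21 ± 0.332% (SD, n = 4) in frozen and 4.5 ± 0.583% (n = 3) in fresh libraries, a difference of -1.29 percentage points with p = 0.0286 in a two-sided exact permutation test, the smallest p that 35 splits allow. The exact 95% intervals of single libraries overlapped, from 1.75 to 4.38% in the lowest frozen library and from 3.82 to 6.65% in the highest fresh library. With the gate that did not use Glis3, shares were 3.86, 4.25, 2.43 and 2.25% against 6.0, 6.46 and 2.84%, the groups overlapped and the exact permutation p was 0.143. With each nucleus thinned to 5000 UFIs the difference was -0.906 points (exact permutation p = 0.0286). The shares were 3.43 ± 0.455% with preindex (n = 3) and 4.01 ± 0.978% without (n = 4), which did not differ beyond their spread (exact permutation p = 0.4). Thinned to 5000 UFIs, the primer difference was -0.318 points (exact permutation p = 0.486). With the gate that did not use Glis3 the preindexed share was lower by 2.63 points (exact permutation p = 0.0571). That gate asks for UFIs of several markers, so it depends on depth, and it was not thinned. Median UFIs of members averaged 10820 with preindex and 19700 without. Shares from that gate, by storage and by primer, may thus carry depth, which was not tested. A share of nuclei depends on all other nuclei in the library, and which part of the brain entered each library is not known.

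**Figure D3:**
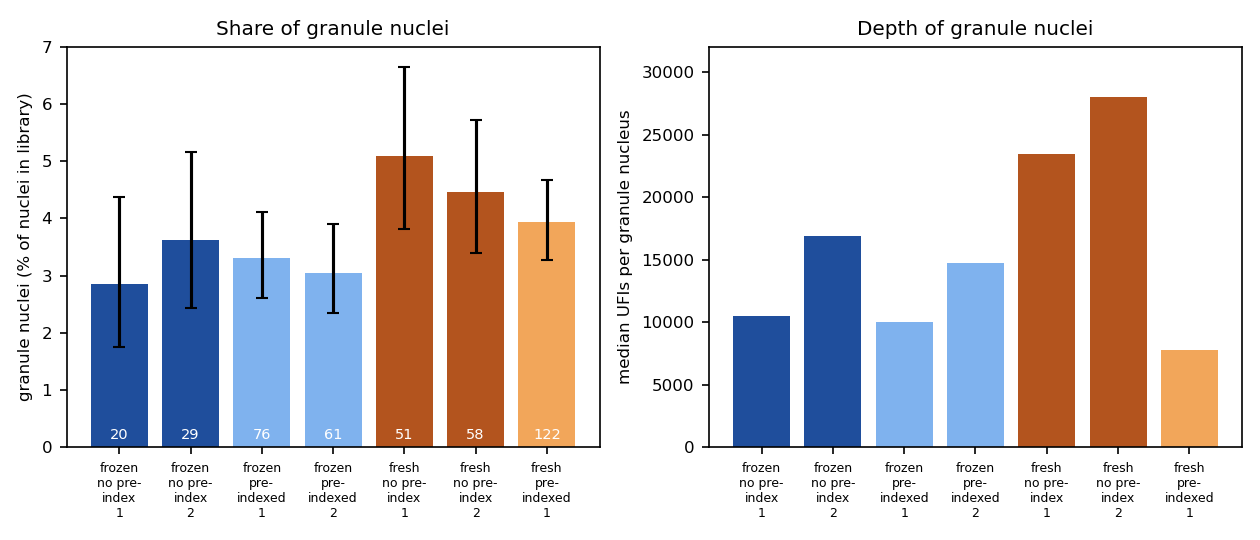
Left, granule nuclei as a percentage of all nuclei in each library (bars, numbers of members inside, lines for exact 95% intervals of counting error); right, median UFIs per granule nucleus. The 3 fresh libraries lie between 3.94 and 5.1% and the 4 frozen libraries between 2.86 and 3.62%, while depth ranges from 7778.5 to 27979.5 UFIs.

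Gene levels within members were compared between storage conditions and primers on UFIs summed per library. Of 9484 genes tested with edgeR's quasi-likelihood test (Benjamini-Hochberg adjusted p under 0.05), 20 (0.211%) were higher and 6 (0.0633%) lower in frozen than in fresh members. The transcripts of the mitochondrial genome were the largest group, a list drawn up after these values were seen. Of 14 tested, 8 were higher in frozen members and 0 lower, and only these 8 had an estimate above 0. mt-Nd5, a subunit of respiratory complex I, stood at 698, 703, 304 and 293 CPM in frozen and 180, 168 and 157 CPM in fresh members (log2 fold change 1.60, SE 0.184, edgeR adjusted p = 0.00199). The ribosomal mt-Rnr1 stood at 11500, 8240, 4650 and 4510 CPM against 2500, 2190 and 2840 CPM (1.51, SE 0.222, edgeR adjusted p = 0.00698). In both cases frozen and fresh libraries did not overlap and the 2 frozen libraries without preindex were the highest. mt-Nd4 (1.77), mt-Nd1 (1.65), mt-Co1 (1.49), mt-Nd2 (1.45), mt-Rnr2 (1.42) and mt-Cytb (1.41) rose likewise. None of the 8 passed without the primer as a term, and all passed in the other 17 alternatives. The rise of mt-Nd5 differed between members and other Slc17a7 nuclei by 0.47 on the log2 scale, which did not pass the test (edgeR adjusted p = 0.376), and none of the other 7 passed it.

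Outside the mitochondrial genome, Mid1, a microtubule-associated ubiquitin ligase, rose most firmly in frozen members. It stood at 45.7, 54.5, 62.5 and 65 CPM against 13, 10.8 and 18.8 CPM (log2 fold change 1.96, SE 0.225, edgeR adjusted p = 0.00199), with no overlap between the groups. Prdm16 (2.72) and Sox6 (1.80) were higher. With the 7 nuclei with distal tubule genes left out they stood at 1.73 and 1.4 and did not pass (edgeR adjusted p = 0.495 and 0.203). Pkhd1 and Umod, both of kidney tubule, also passed, and stood at 123 and 211 CPM and at 40.9 and 61 CPM in the frozen preindexed libraries against at most 9.40 and 0.765 CPM in the others. Of the lower genes, Gm44511 stood at 29.1, 28.2, 52.9 and 40.4 CPM in frozen against 100, 81.6 and 93 CPM in fresh members (-1.28, SE 0.205, edgeR adjusted p = 0.0123). Hectd2, a ubiquitin ligase (-1.10), Dpf3, a chromatin reader (-0.74), Olfml2b (-1.18) and Prr5l, a partner of mTORC2 that is on the oligodendrocyte list (-2.88), were also lower in frozen members. Their calls were less firm, since of 18 alternatives Olfml2b lost its call in 14, Hectd2 in 9, Dpf3 and Prr5l in 8 each and Gm44511 in 4, while Mid1 lost it in none. None of C1ql2, Chst9, Rfx3 and Trpc6 passed for storage, and Glis3 and Prox1 belong to the rule. Without the fresh preindexed library 16 genes passed in place of 26.

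The primer changed more genes. With preindex, 88 genes (0.928%) were higher and 95 (1.00%) lower in members by the same edgeR test, and without the 64 nuclei that held genes of another class the counts were 62 and 51. The 183 genes became 99, 81, 80 and 96 without each frozen library in turn and 93 without the second fresh library without preindex. Among the genes that fell were noncoding transcripts. Rn7sk, the 7SK RNA that restrains transcription elongation, stood at 998, 974, 892 and 935 CPM without preindex and 348, 296 and 359 CPM with it (log2 fold change -1.45, SE 0.110, edgeR adjusted p = 5.11e-06). Gm24601, annotated as a ribosomal RNA, fell by 1.79, Rmrp, the RNA of RNase MRP, by 2.18, and the antisense transcript Gm15564 by 1.94 on the log2 scale. The transcript Mir6236 fell by 2.52. Reads of near-identical sequences elsewhere cannot be told apart from those of small RNAs.

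Cd44, a receptor for hyaluronan, fell from 170, 141, 113 and 129 CPM without preindex to 19.2, 29.5 and 16.1 CPM with it (log2 fold change -2.67, SE 0.199, edgeR adjusted p = 5.11e-06). The transcripts 9330185C12Rik (-3.36), Zfp791 (-2.71), Il31ra (-2.29) and Gm14236 (-2.30) fell likewise. In all of these the 3 preindexed libraries lay below the other 4. Fat2 and Cbln3, cerebellar granule genes, stood at 32.1 to 95.6 CPM and 7.65 to 30.1 CPM without preindex and at 0 in all 3 preindexed libraries, at least 53.1-fold and 19.8-fold lower against a floor of 3 UFIs over the group; the nuclei with cerebellar genes were found in the libraries without preindex. Of the listed genes, the metabotropic receptors Grm3 (-1.41) and Grm4 (-1.74), Nptx1 (-0.64), Neurod2 (-1.06), Slc17a7 (-0.62), Bcas1 (-3.49), Reln (-1.64) and mt-Nd5 (-0.75) fell. Grm3 passed in all 18 alternatives, whereas mt-Nd5 lost its call in 11 of 18, Bcas1 in 9 of 17, Neurod2 and Slc17a7 in 8 each, Nptx1 and Reln in 5 each and Grm4 in 3. With the gate that did not use Glis3, Neurod2 stood at -0.40, Slc17a7 at -0.28 and Nptx1 at -0.14, and none of them passed (edgeR adjusted p = 0.316 to 0.633). Without nuclei holding genes of another class, Grm4 (-0.60) and Reln (-0.18) did not pass (edgeR adjusted p = 0.585 and 0.949), while Grm3 and Nptx1 did. Neurod2 (-0.97), Slc17a7 (-0.59), Bcas1 (-3.03) and mt-Nd5 (-0.67) kept most of their size but did not pass (edgeR adjusted p = 0.0521 to 0.0817). Fat2 and Cbln3 were among the genes by which those nuclei were found, so their values in that setting are not given.

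Rfx3 was among the genes that were higher with preindex, at 2040, 2080 and 2330 CPM against 1500, 1430, 1830 and 1660 CPM (log2 fold change 0.51, SE 0.0830, edgeR adjusted p = 0.00595). Chst9 passed as well (0.60, SE 0.124, edgeR adjusted p = 0.0241), while C1ql2 and Trpc6 did not; Glis3 and Prox1 belong to the rule. Cacna1c, an L-type calcium channel, stood at 3430, 3660 and 3370 CPM against 2090, 2370, 2760 and 2660 CPM (0.58, SE 0.0880, edgeR adjusted p = 0.00463), and Stk32b, a kinase, at 81.8, 86.6 and 35.8 CPM against 33.3, 33.8, 13 and 14.6 CPM (1.4, SE 0.198, edgeR adjusted p = 0.00254). For Cacna1c, Stk32b and Rfx3 the groups did not overlap, and all 3 passed under every alternative tried. The gate without Glis3 chose nuclei partly by Rfx3 and Chst9, so their passes there (0.90 and 0.95) are not separate support. Kcnma1 (0.52), Kcnq3 (0.49), Maml2 (0.40), Nfia (0.39) and Tenm4 (0.63) were higher by smaller amounts. Of 18 alternatives, Nfia lost its call in 13, Maml2 in 9, Kcnq3 in 8, Chst9 in 5 and Kcnma1 in 4. Dab2, an endocytic adaptor, passed (3.31) with 60.1 and 90.6 CPM in the frozen preindexed libraries and 3.58 CPM in the fresh preindexed one, against at most 2.70 CPM in the others. It passed also without nuclei with distal tubule genes (2.96, edgeR adjusted p = 0.0265). That setting leaves out nuclei by distal tubule genes only, so it does not bear on RNA of other kidney cells, which was not tested. Kcnk13 (1.62), Tmem132c (1.61), Chst8 (1.39), Ptprm (1.38), Tcerg1l (1.32), Fhod3 (1.29), Cacna2d2 (1.27) and Thsd4 (1.27) rose more. Without nuclei holding genes of another class Kcnk13 passed and the other 7 did not (edgeR adjusted p = 0.0924 to 0.718). Of these 7, Cacna2d2 (2.19), Fhod3 (1.53) and Tcerg1l (1.36) were no smaller than before, and Ptprm (0.98), Thsd4 (0.87), Tmem132c (0.72) and Chst8 (0.62) were smaller. With the gate that did not use Glis3, Kcnk13 stood at 0.50 and did not pass (edgeR adjusted p = 0.526), and Fhod3 passed with the opposite sign (-1.06, edgeR adjusted p = 0.00426). In that gate the estimates of Tmem132c, Chst8, Ptprm, Cacna2d2, Thsd4 and Tenm4 were also below 0 but did not pass (edgeR adjusted p = 0.0963 to 0.957). Slc12a1, Umod and Pkhd1 passed as well, in the libraries that held the nuclei with distal tubule genes.

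**Figure D4:**
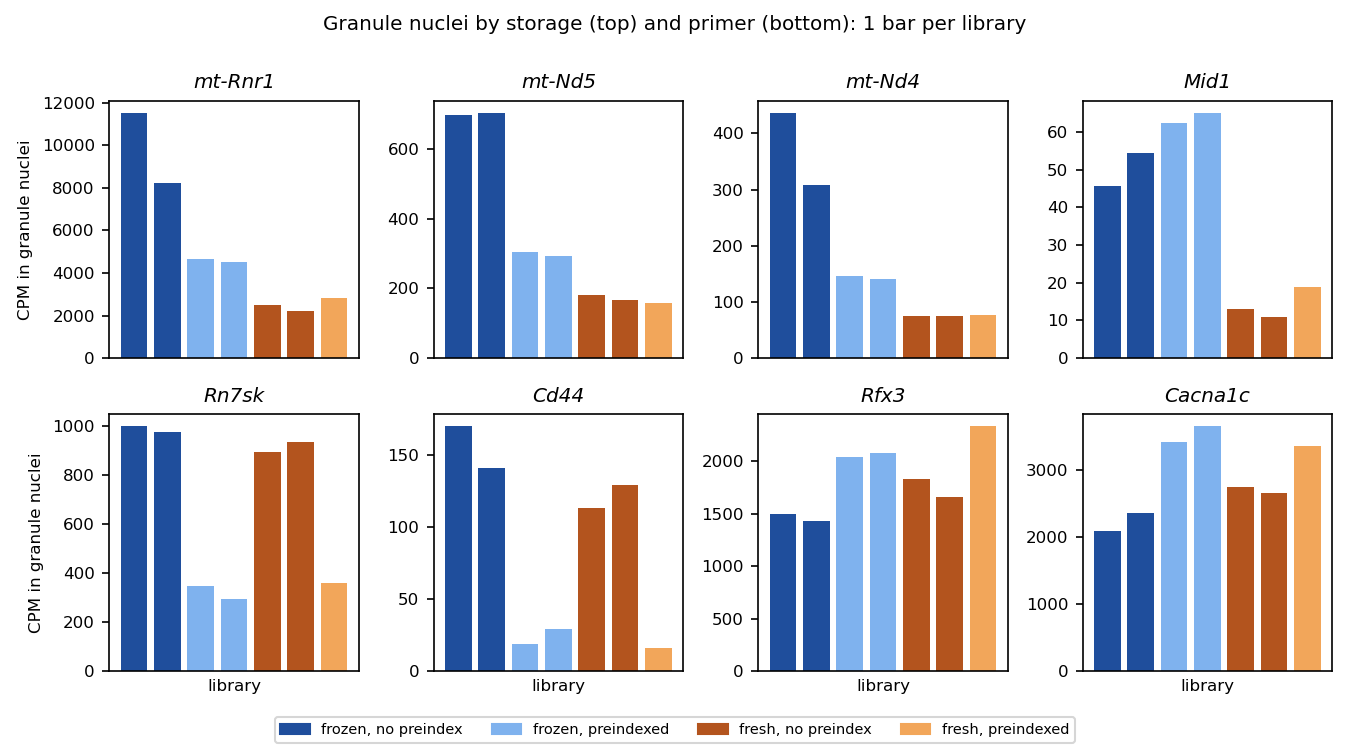
CPM in granule nuclei for 4 genes called for storage (top) and 4 called for the primer (bottom), with 1 bar per library in the order frozen without preindex, frozen preindexed, fresh without preindex and fresh preindexed. Mid1 lies at 45.7 CPM or more in the 4 frozen libraries and at 18.8 CPM or less in the 3 fresh ones, and Rn7sk lies at 892 CPM or more without preindex and at 359 CPM or less with it.

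Whether members responded unlike other Slc17a7 nuclei was tested as an interaction with the library as a block. For storage 2 of 9993 genes (0.0200%) passed, Prr5l and Kank1, and for the primer 24 (0.240%). Prox1, by which the members were chosen, is among the 24 and is not read further. Prr5l, which is on the oligodendrocyte list, was lower in frozen members, at 12.5, 3.76, 2.40 and 1.97 CPM against 23.7, 65.4 and 18.8 CPM in fresh members. Its frozen values were at or under the level of 3 UFIs in their sums. Other Slc17a7 nuclei held 23.5 CPM of Prr5l in frozen and 16.8 CPM in fresh libraries (difference of log2 fold changes -3.88, SE 0.510, edgeR adjusted p = 0.0171). Kank1, of cortical actin regulation, differed the other way (3.17), and without the 7 nuclei with distal tubule genes its difference was 2.39 and did not pass (edgeR adjusted p = 0.522). For the primer, 6330411D24Rik rose with preindex in members, from 12.5, 1.88, 7.65 and 5.94 CPM to 10.8, 81.7 and 30.4 CPM, and stood at 39.6 CPM without and 8.16 CPM with preindex in other Slc17a7 nuclei (4.52, SE 0.597, edgeR adjusted p = 0.00753), though its libraries overlapped in members. Cacna2d2, a calcium channel subunit, stood at 12.5, 15, 19.9 and 11.3 CPM without and 37.3, 40.4 and 31.3 CPM with preindex in members, against 28.7 and 11.8 CPM on average in other Slc17a7 nuclei (2.56, SE 0.345, edgeR adjusted p = 0.00753). Grm3 fell in members and stood at 408 and 400 CPM in other Slc17a7 nuclei (-1.38, SE 0.252, edgeR adjusted p = 0.0349). Without nuclei holding genes of another class, 10 genes passed for the primer, Gpc6 and 6330411D24Rik among them. Cacna2d2 (3.47) and Grm3 (-1.15) did not pass there although they were larger or little smaller, and Reln (-0.23) did not pass. For storage no gene passed without the second frozen preindexed or the second fresh library without preindex. With all libraries, 664 genes had an unadjusted p under 0.05 for this interaction and DESeq2 called 4.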

How the data were processed

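The 7 brain files hold counts of UFIs per gene and nucleus as the authors deposited them, with no normalization. For these, the authors cut away poly-A stretches and set the barcode cutoff by hand; STAR alignments that were unique went to whole genes by strand, and UMI-tools counted the UFIs. Methods name GRCh38 at this step, and the submitters' processing notes also list GRCm38, mm10, cutadapt, featureCounts and Scanpy, without versions. Coordinates are from GENCODE and sequences from RefSeq, both on GRCm38; 32439 of 34496 gene symbols matched. The 5 species-mix libraries of the series were not used here.

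All deposited nuclei were kept, and no doublet caller was run. Other Slc17a7 nuclei had at least 2 Slc17a7 UFIs, were not members, met the same limits on Slc34a1, Lrp2 and Slc1a3, and held under 3 Gad1 and Gad2 and under 2 Gabra6, Fat2 and Cbln3 UFIs per 10000. UFIs were summed per library and class, filtered with filterByExpr, TMM-scaled and tested in edgeR 4.0.16 (glmQLFTest, storage and primer as terms, adjusted p under 0.05) in R 4.3.3. Interactions had the library as a block. Shares were tested by exact permutation (scipy 1.17.1). CPM are unscaled, with 1 added before logs. DESeq2 1.42.0, upper-quartile scaling, no filter, a replicate block, other gates, and leaving out nuclei or each library were alternatives; leaving out nuclei with distal tubule genes, with genes of another class or with shared barcodes was chosen after seeing the data. On simulated data with 200 genes changed by a log2 fold change of 1.5, 150 were recovered for storage (4.46% of calls false), 151 for the primer (1.95%), 123 for the interaction with the primer (2.38%) and 121 for that with storage (3.97%). The simulated counts were independent, with the same dispersion for every gene. They held no class difference, no library effect shared by the classes and no nuclei of another class. These rates may therefore not hold for the real data.

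The members, the 32 gene lists and the tests were chosen with earlier results of these data known, and the mitochondrial list was added after its values were seen. Named genes were the markers, for each factor up to 10 higher and 10 lower genes of largest change that passed with at least 20 CPM and no overlap between groups, up to 5 each way per interaction, the 15 highest and 10 lowest ratios, and from each list those most abundant, furthest from other Slc17a7 nuclei or past a test. Neurod1, Trpc2 and Chst15 were not analysed here. Some further genes that these rules would name are not reported here.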

Additional observations from a re-analysis of the deposited data

Results flagged for a closer look

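In 4 of 128 tests for a sample far from the rest of its group of 4 libraries, 1 library stood apart by Dixon's ratio (chance flags about 1 in 20 groups). Prr5l, among frozen members, stood at 12.5 CPM in the first library without preindex and at most 3.76 CPM in the other 3. In that library, the smallest sum, 12.5 CPM is the level of 3 UFIs. The other 3 values lie under the level of 3 UFIs in their own sums (5.64, 3.61 and 2.95 CPM), so the flag rests on very few UFIs. Slc12a1, the sodium, potassium and chloride cotransporter of the distal tubule, stood at 457 CPM in the second frozen preindexed library and at most 68.5 CPM in the other 3 frozen libraries; that library held 4 of the 7 members with distal tubule genes. Umod stood at 0.765 CPM in the first fresh library without preindex and at 0 in the other 3 without preindex; that value is 1 UFI, which stands apart from any 3 zeros, so it shows nothing further. Ptprm, a receptor tyrosine phosphatase, stood at 129 CPM in the same library and at most 65.8 CPM in the other 3 without preindex.

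The storage effect differed between members and other Slc17a7 nuclei for Kank1, by 3.17 on the log2 scale, and for Prr5l, by -3.88, in the edgeR interaction test. The primer effect differed most upwards for 6330411D24Rik (4.52), Cacna2d2 (2.56), Pbx3 (2.54), Pcsk6 (2.23) and Btbd11 (2.22). It differed most downwards for Pld5 (-1.81), Reln (-1.70), Gpc6 (-1.56), Grm3 (-1.38) and Hs3st4 (-1.28). Once members with genes of another class were left out, 6330411D24Rik (4.45) and Gpc6 (-1.77) still passed for the primer. The other 8 did not pass (edgeR adjusted p = 0.121 to 1.0). Of these, Cacna2d2 (3.47), Pbx3 (2.43), Btbd11 (2.25), Pcsk6 (1.70) and Grm3 (-1.15) kept most of their size, while Hs3st4 (-0.69), Reln (-0.23) and Pld5 (0.13) did not. For storage, Prr5l passed (-4.43) and Kank1 (2.33) did not (edgeR adjusted p = 0.533). The members left out there were not chosen by oligodendrocyte genes, so RNA of oligodendrocytes as a source of Prr5l was not tested.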

How the results depend on the processing

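For storage, the 26 genes called in members became 224 with no filter on low counts, 17 with a replicate block, 2 without the primer term, 43 with Glis3 at 8 or more per 10000 and 49 without the members with Gad1 and Gad2 at 2 or more per 10000 (373 of 417 left), and 16 to 30 when 1 library was left out. For the primer, 183 became 525 with no filter, 524 with the gate without Glis3 (99 of them shared) and 113 without members holding genes of another class, and 80 to 166 with 1 library left out. For the interaction with the primer, 24 became 192 with no filter and 10 without members holding genes of another class, and 6 to 63 with 1 library left out. For that with storage, 2 became 91 with no filter, 4 with DESeq2, 1 without members holding distal tubule genes and 4 without those of any other class, and 0 to 4 with 1 library left out. The storage difference in share was -1.90 points with the gate without Glis3 (exact permutation p = 0.143) and -1.57 to -0.989 with 1 library left out, where no p under 0.05 is possible. With the gate without Glis3 the primer effect turned to -0.95 for Tmem132c, -0.92 for Chst8, -0.57 for Ptprm, -1.06 for Fhod3, -0.04 for Cacna2d2, -0.30 for Thsd4 and -0.31 for Tenm4. Umod for storage ranged from -1.77, without the fresh preindexed library, to 7.14, and Pld5 for the interaction with the primer turned to 0.13 without members holding genes of another class; these causes were not tested. Of 1224 values for named genes, 929 kept their direction and side of the threshold and 286 kept their direction only. Replicate numbers did not pair the libraries: same-numbered deviations correlated at 0.0787, -0.0133 and -0.00766 over 3158 genes, and the replicate block left 133 genes for the primer. The 20 members of the smallest library and 240594 UFIs in its sum limit what could be detected there.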

Other observations

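Transcripts of immediate early genes, which neurons make within minutes of strong activity, were gathered in 1 member. Over all 417 members, Fos, Fosb, Arc, Npas4, Nr4a1 and Junb together gave 180 UFIs, of which 125 lay in a single nucleus of the first fresh library without preindex. That nucleus held 41 Arc, 30 Nr4a1, 19 Fosb, 18 Npas4, 11 Fos and 6 Junb UFIs among 23667 in all, with 4 Prox1 UFIs and 3 of the 4 other markers; C1ql2 was not among them. No other member held 10 or more UFIs of the 6 genes, and outside that library none held more than 5. The nucleus and these 6 genes were singled out after their values were seen, and it sets most of the level of these genes in that library, 138 UFIs over 51 members.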
